A study of Homo sapiens with 4 samples.

Results

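The genes described here are SOX2, POU5F1 (the gene of the protein OCT4) and NANOG, the core transcription factors of human pluripotent stem cells, together with SOX2-OT, the long non-coding gene in which SOX2 lies, and POU5F1B, a retrogene copy of POU5F1. They were chosen by name. All 5 were found, each as 1 row of the 58365 gene rows of the expression table. The cells were H1, a human embryonic stem cell line. They were collected on day 2 of hematopoietic differentiation in Custom mTeSR1 medium with 40 ng/ml activin A and 50 ng/ml BMP4, which both groups received; the study's methods assign the 2 concentrations the other way round. One group had IWP2, a small molecule that blocks Porcupine, the enzyme that prepares Wnt proteins for secretion, and the control group had the solvent DMSO. Each group had 2 RNA-seq libraries. The comparison asks what became of the pluripotency factors in differentiating cells given IWP2, and Wnt release itself was not measured in these libraries. The dose of IWP2 and whether the libraries came from separate cultures are not given in the sources used here, and p-values measure only the spread between these libraries. All values come from 1 cell line and from bulk RNA, in which fewer cells of a type and less RNA per cell cannot be told apart.

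SOX2 is a high-mobility-group protein that binds DNA side by side with OCT4, a POU-domain protein, on composite sites, and NANOG is a homeodomain protein whose gene both of them bind. The 3 factors sustain their own expression and hold lineage genes in check, and they are lost at different times as cells leave pluripotency. In human cells entering mesendoderm, NANOG and OCT4 are known to persist for a time with the primitive streak genes, whereas SOX2 is known to be kept in cells that turn towards neural fates.

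On the genome (GRCh38, as in the table's row names), SOX2 is a protein-coding gene of 1 exon on the plus strand at chr3:181711924-181714436. It lies inside SOX2-OT, which runs in the same direction over chr3:180989770-181836880. None of the 170 distinct SOX2-OT exons in GENCODE 29 overlaps SOX2: the nearest ends 559 bases before it and the next starts 749 bases after it, so that SOX2 is intronic to its host. POU5F1 is on the minus strand of chromosome 6 (chr6:31164337-31180731, 9 annotated transcripts), and NANOG is on the plus strand of chromosome 12 (chr12:7787794-7799141, 4 annotated transcripts). The submitters' notes name hg19, but these positions are those of GRCh38. The bases just before the SOX2 exon, and those just before the start of 1 of the 4 NANOG transcripts, are shown because these genes are known targets of the POU and SOX factors themselves. The NANOG window lies inside the annotated span of the gene, in an intron of a transcript that starts further upstream. Both are from RefSeq promoters (GRCh38.p14, plus strand, chr3:181711675-181711923 and chr12:7789152-7789395), and the capitals mark ATGCAAA, a core of the octamer that POU factors bind, or its reverse complement, and in NANOG also the reverse complement of CATTGT, a core bound by SOX factors.
SOX2: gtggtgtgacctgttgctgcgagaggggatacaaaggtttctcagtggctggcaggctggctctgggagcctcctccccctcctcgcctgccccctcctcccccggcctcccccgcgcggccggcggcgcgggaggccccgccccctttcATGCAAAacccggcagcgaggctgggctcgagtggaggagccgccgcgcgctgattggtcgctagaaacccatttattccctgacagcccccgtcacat
NANOG: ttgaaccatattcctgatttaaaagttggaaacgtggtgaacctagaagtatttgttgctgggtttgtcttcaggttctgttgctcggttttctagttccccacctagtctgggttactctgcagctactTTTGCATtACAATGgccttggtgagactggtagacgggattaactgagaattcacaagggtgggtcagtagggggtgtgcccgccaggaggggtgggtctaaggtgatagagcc
On both strands, ATGCAAA was in 4.46% and CATTGT in 10.8% of the 35116 promoter windows of RefSeq. An ATGCAAA and a CATTGT at most 3 bases apart, the layout in NANOG, was in 9 windows (0.0256%). The ATGCAAA spelling was chosen after the sequences were seen; TGCAAAT, the spelling planned, was in neither gene's window, nor were CTTTGAT and CTTTGTT, cores bound by the Wnt pathway's TCF/LEF factors (4.20%, 2.62% and 5.20% of all windows). Of the 3 SOX2-OT windows, 1 held CATTGT. Other spellings of the octamer, SOX and TCF/LEF cores were not searched, so their absence is not shown. These matches are descriptions of letters and not of binding.

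The libraries were similar in depth, and Wnt target genes differed between the groups. From the steps between low values of genes with 1 exon, the authors' scaling corresponded to an estimated 20800000 to 25100000 fragments a library. Between 95.1% and 96.8% of those low values fell within 0.03 of a whole fragment. The depth was chosen to make this share as large as possible, so the share is no separate check of it. Of 10 Wnt feedback target genes, 8 fell with IWP2, none rose, and RNF43 and ZNRF3 did not pass. The falls were uneven. LEF1, a DNA-binding partner of beta-catenin, went from 9.34 and 9.70 FPKM to 0.144 and 0.239. SP5, NKD1, LGR5 and DKK1 fell to ratios between 0.00368 and 0.0360. AXIN2, NOTUM and TNFRSF19 fell less, to ratios of 0.409, 0.441 and 0.528. Of the 10, 4 reached the minimum level for testing only through the DMSO libraries, LEF1 included. Over all 14278 genes tested, 1032 rose and 1284 fell at an adjusted p under 0.05 (limma on log2(FPKM + 1), Benjamini-Hochberg). Genes were tested if they reached 1 FPKM in at least 2 of the 4 libraries; FPKM is fragments per kilobase of transcript, scaled to the depth of the library, so levels can be set side by side between genes. Of the 5 genes, SOX2, POU5F1, NANOG and POU5F1B were tested, and 2 of these 4 rose. The background share of genes that rose was 7.23%, that of genes that fell 8.99% and that of either 16.2%; with no filter on level these shares were 0.408%, 0.909% and 1.32% of 28917 rows. SOX2 and POU5F1B reached the minimum level only through the IWP2 libraries, so a count over the genes tested says little about all 5. SOX2-OT did not reach the minimum level and its values are from a fit over all rows with any signal. In all 5 genes both IWP2 libraries lay above both DMSO libraries, as they did for 28.1% of genes tested and 21.9% of rows with any signal; in either direction the groups were apart for 60.2% of genes tested. With 2 libraries against 2 the smallest two-sided p of an exact permutation test on 1 gene is 0.333, so the tests below rest on limma's shared estimate of the spread.

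**Figure D1:**
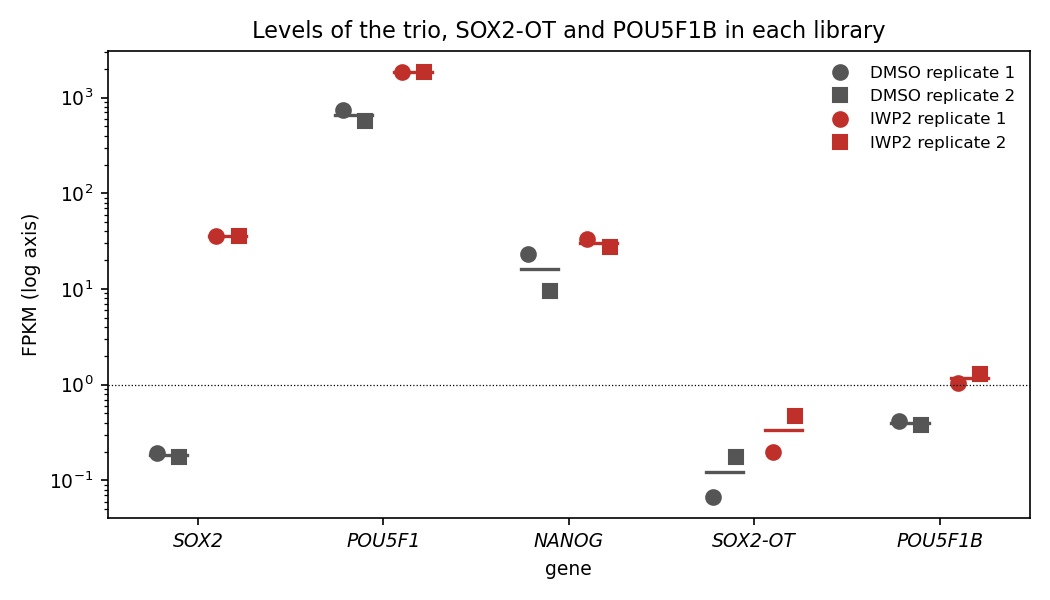
FPKM on a log axis of the 5 genes in the 4 libraries, with circles for replicate 1, squares for replicate 2, grey for DMSO, red for IWP2, a short line at each group's mean and a dotted line at 1 FPKM. SOX2 moved from 0.183 to 35.8 FPKM on average while POU5F1 and NANOG were at 9.54 FPKM or more in every library.

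SOX2 was close to absent from the DMSO cells and well expressed with IWP2. Its level was 0.193 and 0.174 FPKM in the DMSO libraries and 35.6 and 36.1 FPKM in the IWP2 libraries. The libraries of a group lay close together and the groups lay far apart. The means were 0.183 ± 0.0139 FPKM (SD, n = 2) and 35.8 ± 0.334 FPKM (SD, n = 2), a ratio of 195. As SOX2 has 1 exon, its FPKM could be turned into estimated fragments with the fitted depth. Rounded to whole numbers, these were about 10 and 8 in the DMSO libraries, and about 2019 and 1772 in the IWP2 libraries. The exact Poisson 95% intervals of the low counts were 4.80 to 18.4 and 3.45 to 15.8, and they cover counting error only. On the log2(FPKM + 1) scale SOX2 rose by 4.96 ± 0.12 (SE; 95% confidence interval 4.66 to 5.26; limma adjusted p = 0.000152). No other gene of the 14278 tested rose by more on that scale. With a pseudocount of 0.1 the log2 difference was 6.99, and 1 gene, the mitochondrial pseudogene MTATP8P2, which is listed at 0 in both DMSO libraries, exceeded it. Without DMSO replicate 2, 1 gene, PVT1_1, rose by more than SOX2 (4.95). In the fit with no filter its adjusted p was 0.0221.

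POU5F1 was the most abundant of the 5 genes in both groups and rose as well, by far less than SOX2. It was at 751 and 571 FPKM with DMSO and at 1854 and 1844 FPKM with IWP2. The IWP2 libraries were nearly equal, and the DMSO libraries differed by a factor of 1.31. The mean went from 661 ± 127 to 1849 ± 7.53 FPKM (SD, n = 2 each), a ratio of 2.80, and the log2 difference was 1.50 ± 0.15 (SE; limma adjusted p = 0.00357). Among all rows of the table the mean of POU5F1 ranked 140th with DMSO and 41st with IWP2. The call held without each library in turn, with an adjusted p between 0.00900 and 0.0435. It was lost in the fit with no filter on level, at an adjusted p of 0.0718.

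NANOG was present in all 4 libraries, and its difference did not pass the test. Its level was 23.0 and 9.54 FPKM in DMSO replicates 1 and 2, and 33.6 and 27.5 FPKM in IWP2 replicates 1 and 2. The DMSO libraries differed by a factor of 2.41, more than DMSO replicate 1 differed from either IWP2 library. On the log2(FPKM + 1) scale the gap between the DMSO libraries was 1.19, against a median gap of 0.155, and 98.7% of genes tested had a smaller gap. The means were 16.3 ± 9.52 and 30.6 ± 4.37 FPKM (SD, n = 2 each), a ratio of 1.88, and the log2 difference was 0.98 ± 0.38 (SE; 95% confidence interval 0.02 to 1.94; limma adjusted p = 0.155). The outcome depended on the libraries and the model: without DMSO replicate 1 the log2 difference was 1.57 and passed (limma adjusted p = 0.0161), and without DMSO replicate 2 it was 0.39 (limma adjusted p = 0.216). With all 4 libraries and the replicate number as a block, limma's adjusted p was 0.0476 for the same difference of 0.98. The summed FPKM of 13 primitive streak and early mesoderm markers was 1036 in DMSO replicate 1, 1301 in DMSO replicate 2, and 93.9 and 95.8 with IWP2. APLNR was the largest part with DMSO, and without it the other 12 summed to 656 and 789 with DMSO and to 90.9 and 93.4 with IWP2. T and MSGN1 were higher in DMSO replicate 1 than in DMSO replicate 2. The part of these differences in the NANOG values was not tested.

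**Figure D2:**
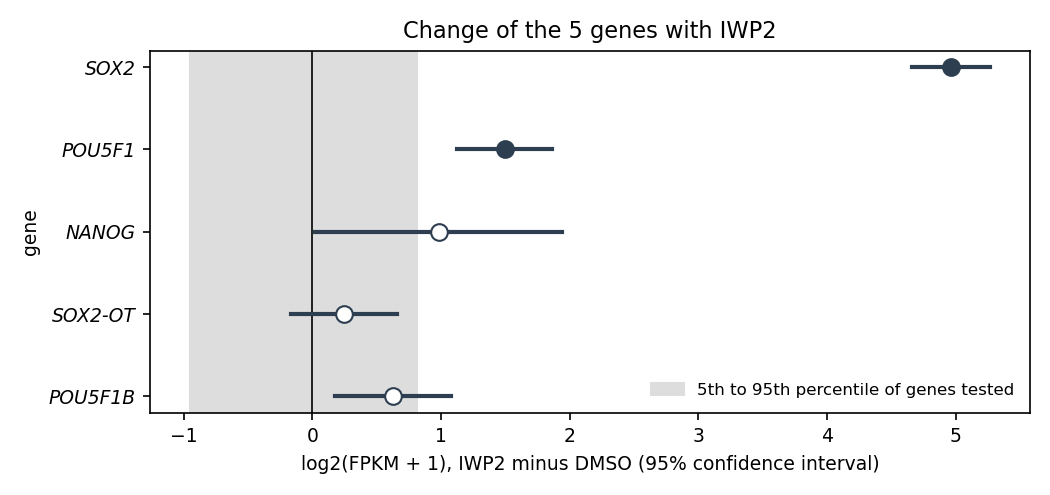
Difference of log2(FPKM + 1), IWP2 minus DMSO, of the 5 genes (points) with the 95% confidence interval (lines); filled points passed an adjusted p under 0.05, and the grey band spans the 5th to 95th percentile of genes tested, -0.95 to 0.82. SOX2 lies at 4.96 and POU5F1 at 1.50, NANOG at 0.98 has an interval from 0.02 to 1.94, and SOX2-OT, from the fit with no filter, has an interval from -0.16 to 0.66.

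The members of the trio thus changed by unequal amounts. In each library SOX2 was set against the other factors as a share of their FPKM. It was 0.0257% and 0.0304% of POU5F1 with DMSO and 1.92% and 1.96% with IWP2. It was 0.840% and 1.82% of NANOG with DMSO and 106% and 131% with IWP2, so that the listed level of SOX2 passed from far under NANOG to slightly above it. In IWP2 replicate 1 SOX2 was at 35.6 and NANOG at 33.6 FPKM, beside 3.07 FPKM for NANOGP8, a near-identical copy of NANOG. Reads can be exchanged between NANOG and this copy, so their order is uncertain in that library. In IWP2 replicate 2 the levels were 36.1, 27.5 and 2.40 FPKM. The rise of SOX2 exceeded that of POU5F1 by 3.46 on the log2(FPKM + 1) scale (95% confidence interval 2.99 to 3.94; limma standard errors of both genes combined, limma adjusted p = 0.000569 over all genes). With a pseudocount of 0.1 this contrast was 5.49, and with none it was 6.12. The rise of SOX2 exceeded the difference of NANOG by 3.98 (2.97 to 4.99; adjusted p = 0.0262 by the same limma contrast). With a pseudocount of 0.1 the latter was 5.96 and with none 6.58. Without IWP2 replicate 1 or 2 its limma adjusted p was 0.346 and 0.201. The change of POU5F1 differed from that of NANOG by 0.51, with an interval from -0.52 to 1.55 (limma adjusted p = 0.293). In all, 5 pairs of genes were compared in this way. SOX2 reached the minimum level for testing only through the IWP2 libraries, where it is high. Its contrasts with POU5F1 and NANOG were not run with no filter on level, so their adjusted p-values hold only for that filter. With no filter the SE of the NANOG difference was 0.48, and limma's adjusted p for SOX2 alone was 0.0221.

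The order of levels therefore differed between the groups. With DMSO the order of the means was POU5F1, NANOG, POU5F1B at 0.400 FPKM, SOX2 and SOX2-OT at 0.122 FPKM, and the last 2 overlapped in their libraries. With IWP2 it was POU5F1, SOX2, NANOG, POU5F1B at 1.17 FPKM and SOX2-OT at 0.337 FPKM, and no neighbours in that order overlapped. The order of SOX2 and NANOG is uncertain in IWP2 replicate 1, because reads of NANOG can be exchanged with those of its copies. SOX2 ranked 19090th among all rows with DMSO and 2617th with IWP2, and NANOG ranked 5332nd and 3027th.

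SOX2-OT, a non-coding host gene with 90 annotated transcripts, stayed at low levels while the gene inside it went from near absence to expression. It was at 0.0677 and 0.176 FPKM with DMSO and at 0.199 and 0.476 FPKM with IWP2. The lowest IWP2 library was only slightly above the highest DMSO library, and replicate 1 was at 0.385 of replicate 2 with DMSO and at 0.418 with IWP2. Its means were 0.122 ± 0.0763 and 0.337 ± 0.196 FPKM (SD, n = 2 each), a ratio of 2.77, and the log2 difference was 0.25 ± 0.14 (SE; limma adjusted p = 0.456 in the fit with no filter). With a pseudocount of 0.1 that difference was 0.95. It was 0.40 without IWP2 replicate 1 and 0.10 without IWP2 replicate 2, and passed in neither. Relative to SOX2 it was at 35.0% and 101% with DMSO and at 0.558% and 1.32% with IWP2. Its change minus that of SOX2 was -4.71 on the log2(FPKM + 1) scale (95% confidence interval -5.19 to -4.23, limma contrast, adjusted p = 6.11e-05). No row rose by more than SOX2 in the fit with no filter, so most rows differ from it in this way. The contrast mostly restates the rise of SOX2 and is not particular to its host. SOX2 and its host are on the same strand, so that reads from SOX2-OT introns cannot be told from SOX2 reads in the SOX2 exon.

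POU5F1B, on another chromosome than POU5F1, can encode a protein close to OCT4, and its transcript matches that of POU5F1 at 98.0% of 1371 aligned bases in GENCODE 29, so that reads can be exchanged between them and its level is uncertain. Of the stretches of 50 bases of its 2 annotated transcripts together, 9.91% are found unchanged in POU5F1, and 2.75% of those of 100 bases. These shares cover all bases of both transcripts and not only the aligned part, for which they were not computed. It was at 0.419 and 0.382 FPKM with DMSO and at 1.05 and 1.29 FPKM with IWP2, low in every library. The ratio of the means was 2.92, beside 2.80 for POU5F1, and the log2 difference was 0.63 ± 0.18 (SE; limma adjusted p = 0.0748). In the fit with no filter its adjusted p was 0.117. As a share of POU5F1 it was 0.0558% and 0.0668% with DMSO and 0.0565% and 0.0700% with IWP2. The groups overlapped in this share, and in both groups replicate 2 was the higher. With no pseudocount the log2 ratio to POU5F1 differed between the groups by 0.04. With a pseudocount of 1, which compresses low values, the difference was -0.87 (limma contrast, adjusted p = 0.0130). With 0.1 it was -0.16 (limma adjusted p = 0.730). Only 1.10% of genes tested rose by more than POU5F1, so a smaller change than that of POU5F1 is not particular to POU5F1B. Without IWP2 replicate 1 the contrast with a pseudocount of 1 was -0.78 (limma adjusted p = 0.0696).

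**Figure D3:**
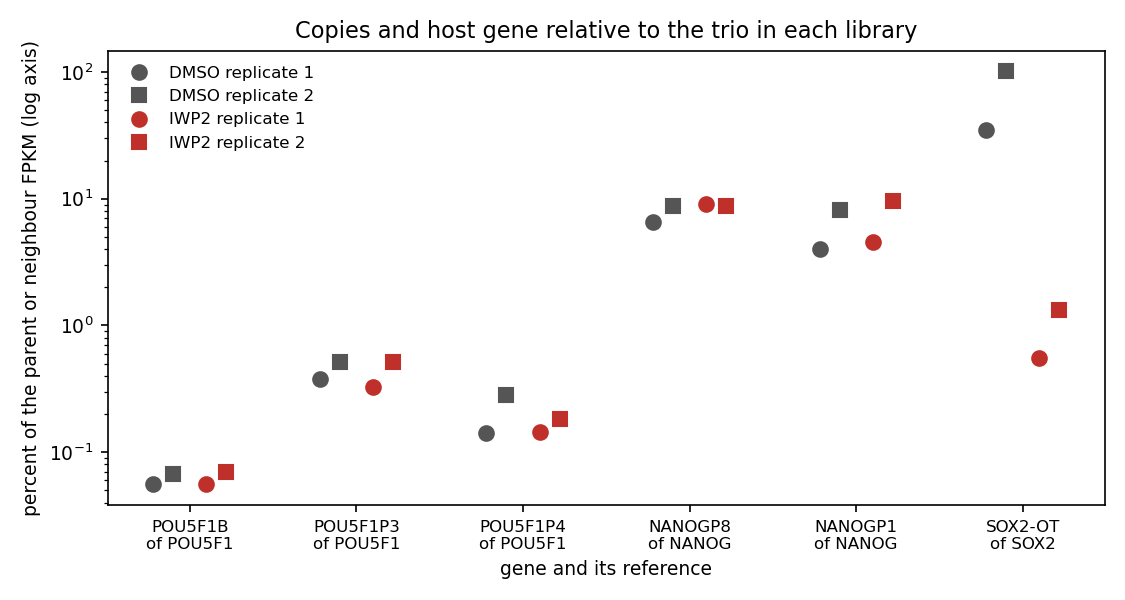
FPKM of 5 copies and of SOX2-OT as a percent of their parent or enclosed gene in the same library, on a log axis, with circles for replicate 1, squares for replicate 2, grey for DMSO and red for IWP2. The shares of the copies overlap between the groups, and that of SOX2-OT falls from 35.0% and 101% to 0.558% and 1.32%.

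Other copies of POU5F1 and NANOG also kept shares of their parent genes that overlapped between the groups. Of the 17 listed copies and paralogues of the trio, 9 were tested. Of these, 2 rose and none fell, beside 7.23% and 8.99% of all genes tested. The median log2 difference of the 9 was 0.79, against -0.02 over all genes tested. NANOGP1, POU3F1 and SOX3 reached the minimum level only through the IWP2 libraries. That raises the count and the median in advance, so they say little about the whole list. POU5F1P3, a pseudogene 98.1% identical to POU5F1 over 1078 bases, rose from 2.82 and 2.92 FPKM to 6.08 and 9.50 FPKM (limma adjusted p = 0.0224). As a share of POU5F1 it was 0.375% and 0.510% with DMSO and 0.328% and 0.516% with IWP2. NANOGP8, a retrogene 99.5% identical to NANOG over 918 bases, went from 1.52 and 0.836 FPKM to 3.07 and 2.40 FPKM (limma adjusted p = 0.0706), and was at 6.60% to 9.11% of NANOG in the 4 libraries. POU5F1P4 and NANOGP1 did not pass the test either. Levels of these copies are uncertain for the same reason as POU5F1B. The other gene that rose was SOX3, the X-linked gene closest to SOX2, from 0.488 and 0.445 FPKM to 4.08 and 3.97 FPKM, a ratio of 8.62 (limma adjusted p = 0.00264). SOX1, the remaining member of that subfamily and a neural gene, was at most 0.0355 FPKM in every library. Among POU genes, the broadly expressed POU2F1 was at 7.13 and 7.43 FPKM with DMSO and at 7.69 and 6.49 FPKM with IWP2. The count of 2 that rose became 1 without DMSO replicate 2, without IWP2 replicate 2 and with no filter.

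The genes near the trio on the chromosomes that passed the test went in both directions. Of 20 listed neighbours, 11 were tested, 1 rose and 2 fell, beside 7.23% and 8.99% of all genes tested, and their median log2 difference was 0.09. In the NANOG region, GDF3, a ligand of the TGF-beta family, rose from 5.29 and 6.52 to 11.7 and 13.9 FPKM (limma adjusted p = 0.0123). DPPA3, a maternal and germline chromatin factor in the same region, was under 1 FPKM in every library, and SLC2A3, a glucose transporter, was at 415 and 252 FPKM with DMSO and at 294 and 295 FPKM with IWP2. FOXJ2 fell there, with a ratio of 0.563 (limma adjusted p = 0.0217). Near SOX2, ATP11B, a phospholipid flippase, fell from 10.3 and 15.3 to 5.23 and 5.60 FPKM (limma adjusted p = 0.0205), and FXR1, an RNA-binding protein gene, was at 98.1 and 106 FPKM with DMSO and at 88.0 and 91.9 FPKM with IWP2. Near POU5F1, none of the 4 genes tested passed, HLA-C and HLA-B included. The counts of 1 that rose and 2 that fell both became 0 without IWP2 replicate 1, without IWP2 replicate 2 and with no filter, and the count that fell became 1 without DMSO replicate 1 or 2.

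The wider pluripotency program was not uniformly higher with IWP2. Of 34 listed partner genes, 27 were tested. Of these, 12 rose and 5 fell, beside 7.23% and 8.99% of all genes tested, so both shares lay above those of all genes. The median log2 difference of the 27 was 0.09, against -0.02 over all genes tested. Of the 11 transcription factors and regulators tested, 4 rose, 2 fell and 5 did not pass. FOXD3, a forkhead factor of epiblast and neural crest, rose from 0.0238 and 0.0805 to 3.66 and 3.87 FPKM (limma adjusted p = 0.00179). PRDM14, a regulator of pluripotency and of germ cells, rose from 1.34 and 1.64 to 6.98 and 7.42 FPKM (limma adjusted p = 0.00248). FOXD3, like SOX2 and SOX3, reached the minimum level only through the IWP2 libraries. OTX2, a homeodomain factor of the primed epiblast and anterior streak, fell from 55.8 and 61.2 to 2.19 and 2.95 FPKM. LIN28A, which binds RNA and blocks let-7 maturation, was at 258 and 248 FPKM with DMSO and at 239 and 252 FPKM with IWP2, and SALL4 lay between 33.8 and 37.8 FPKM in the 4 libraries.

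Of the 12 targets and markers tested, 8 rose and 2 fell, beside 7.23% and 8.99% of all genes tested. CDH1, the epithelial cadherin, rose from 32.6 and 29.7 to 120 and 124 FPKM (limma adjusted p = 0.000392), and PODXL, a sialomucin used as a stem cell marker, rose from 166 and 76.5 to 505 and 442 FPKM (limma adjusted p = 0.0181). Like NANOG, PODXL differed between the DMSO libraries. DNMT3B, the de novo DNA methyltransferase of stem cells, rose by a ratio of 1.48, and DPPA4 by 1.81. TDGF1, the Nodal co-receptor, fell from 203 and 221 to 103 and 98.6 FPKM (limma adjusted p = 0.00213), and DPPA2, which reached the minimum level only through the DMSO libraries, fell with a ratio of 0.329. Among naive state factors, 4 of 8 were tested and 1 fell: TBX3, a T-box factor also used in mesoderm, went from 70.6 and 77.3 to 10.5 and 11.4 FPKM. The count of 12 partner genes that rose became 6 without IWP2 replicate 1, 5 without IWP2 replicate 2 and 6 with no filter.

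**Figure D4:**
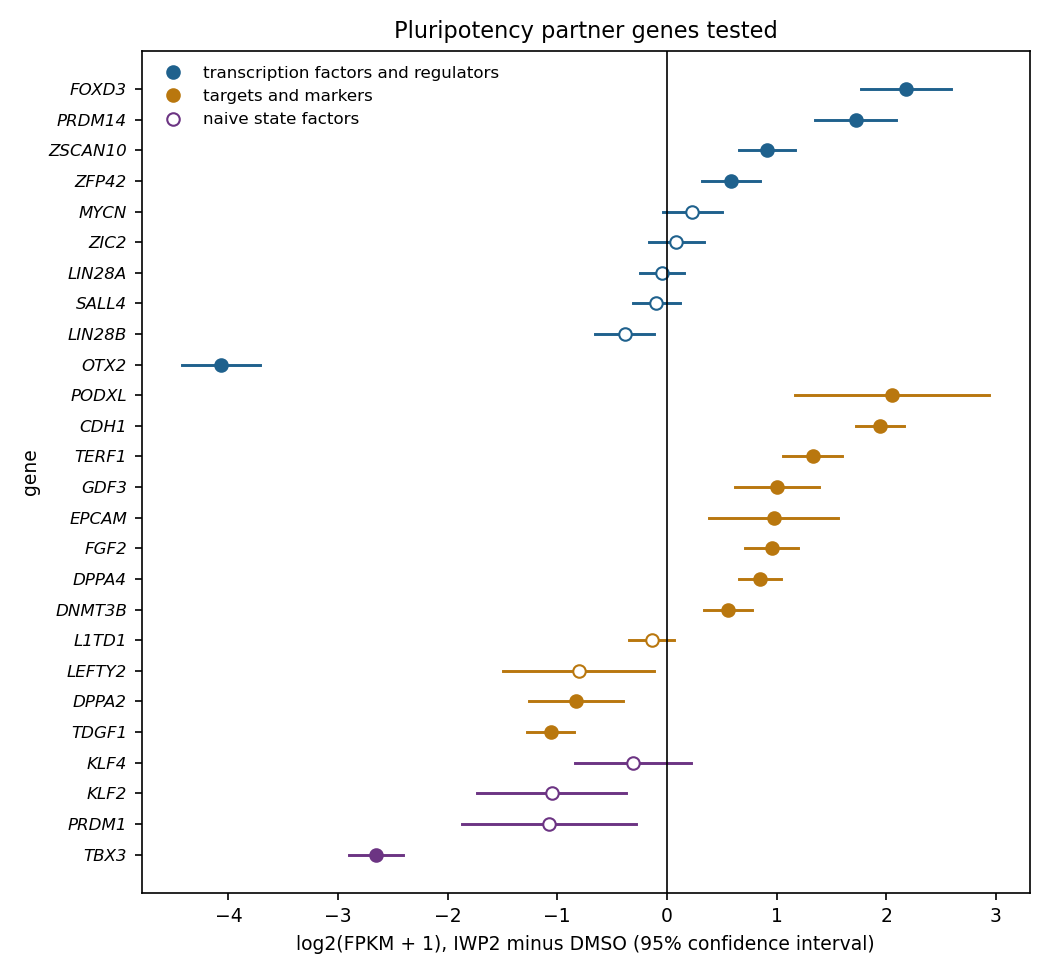
Difference of log2(FPKM + 1), IWP2 minus DMSO, of 26 of the 27 pluripotency partner genes tested, with 95% confidence intervals; colours give the role and filled points passed an adjusted p under 0.05. FOXD3 at 2.18 and PODXL at 2.06 are at the upper end, and OTX2 at -4.07 is at the lower end.

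Markers of other fates also differed between the groups, and most of those that passed fell while SOX2 and POU5F1 rose. Their part in the values of the trio was not tested. All 12 primitive streak and early mesoderm markers that were tested fell, beside 8.99% of all genes tested, and the sums of the list were given above. Of these 12, MESP1, MESP2, GSC, LHX1 and PDGFRA reached the minimum level only through the DMSO libraries, where they are high. The other 7 include EOMES, from 138 and 153 to 12.8 and 12.6 FPKM; T, the brachyury gene, went from 21.6 and 18.5 to 9.40 and 10.4 FPKM. The sum of 6 endoderm markers was 1791 and 2166 FPKM with DMSO and 123 and 134 FPKM with IWP2, with CER1 the largest part with DMSO and SOX17 with IWP2; 3 of 5 tested fell, FOXA2 and HHEX among them, which reached the minimum level only with DMSO. The sum of 8 amnion and trophoblast markers was 303 and 391 FPKM with DMSO and 181 and 206 FPKM with IWP2, most of it HAND1. Without HAND1 the other 7 summed to 69.3 and 68.9 FPKM with DMSO and to 80.8 and 87.2 FPKM with IWP2. TFAP2A and KRT7 rose and CDX2 and HAND1 fell; KRT7 reached the minimum level only with IWP2 and CDX2 only with DMSO. None of the 6 neurectoderm markers reached 1 FPKM in 2 libraries, and their sum lay between 1.04 and 2.50 FPKM in the 4 libraries, with SOX1 at or near 0. Of 6 endothelial and blood markers, 2 were tested and 1, RUNX1, fell, having reached the minimum level only with DMSO, and GATA1 is listed at 0 in every library. The 6 pluripotent stem cell markers, which include the trio itself, do not identify the line. Their sum was 1151 and 947 FPKM with DMSO and 2343 and 2341 FPKM with IWP2, most of it POU5F1; 3 of them rose, and NANOG, LIN28A and SALL4 did not pass.

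The genes most like each member over the 4 libraries were found from the root mean square distance between profiles of log2(FPKM + 1) centred on each gene's mean. For SOX2 the nearest were CTGF at 0.48, MTATP8P2 at 0.59, SPARCL1 at 0.62, U3 at 0.65 and MTATP8P1 at 0.72. CTGF, a secreted matricellular protein, was at 15.7 and 10.03 FPKM with DMSO and at 220 and 244 FPKM with IWP2. SPARCL1, another matricellular protein, was at 2.14 and 2.34 and at 43.0 and 41.2 FPKM, and the other 3 are listed at 0 in both DMSO libraries. For POU5F1 the nearest were BCL6, HTR7, FZD5, MATK and PLEKHG6, at 0.03 to 0.05. FZD5, a Wnt receptor, was at 3.93 and 3.08 FPKM with DMSO and at 11.9 and 12.2 FPKM with IWP2. For NANOG they were AC044839.2, DENND1C, SHROOM2, RN7SL521P and GNA14, at 0.08 to 0.13. All were lower in DMSO replicate 2 than in DMSO replicate 1, which follows from their choice by likeness to NANOG. AC044839.2 and RN7SL521P are listed at 0 in DMSO replicate 2. SOX2 stood at 1.74 from POU5F1 and 2.03 from NANOG, and POU5F1 and NANOG at 0.39 from each other. Over 4 libraries such likeness is a description only.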

How the data were processed

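RNA from H1-derived cells was sequenced from 2 DMSO and 2 IWP2 libraries (Illumina TruSeq, day 2). The authors deposited 1 table of FPKM values per gene. The submitters' processing notes name BWA, Bowtie, RSEM and hg19, with no roles or versions; row positions matched GENCODE 29 on GRCh38 exactly for 97.3% of 58102 shared gene IDs. Strand handling is not given in the sources used here. Columns were assigned from their signs and numbers (without or with IWP2).

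log2(FPKM + 1) was fitted with limma 3.58.1 (R 4.3.3; trend), IWP2 against DMSO, for genes of at least 1 FPKM in at least 2 libraries, with Benjamini-Hochberg adjustment over all genes tested; changes of low genes are understated on this scale. The method was tested on simulated data. A planned fit of ratios to 1 member was replaced by combined limma standard errors, chosen after the data were seen, because every ratio carried the same noise of that member. Genes, lists and naming rules (per list the 4 most abundant and the 2 that changed most, with further examples chosen after values were seen) were chosen with earlier results of these data known. Depth was estimated at 20800000 to 25100000 fragments a library. The estimate was the depth that put most low values of single-exon genes of GENCODE 29 near whole fragments. Alternatives were other pseudocounts, filters, scalings, trend, replicate block and each library left out. The values of 1 partner gene are not reported here; the counts and medians of its list include it.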

Additional observations from a re-analysis of the deposited data

How the results depend on the processing

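Directions of the 5 genes were the same under all alternatives run, and SOX2 passed in each fit that tested it (log2 difference 4.95 to 6.99). POU5F1 lost its call only with no filter on level (1.50, adjusted p = 0.0718). POU5F1B passed only with limma without trend (0.63, limma adjusted p = 0.0283). Without each library in turn, the log2 difference was 0.39 to 1.57 for NANOG, genes higher in IWP2 numbered 173 to 815 and genes lower 392 to 841. With no filter, 118 genes were higher and 263 lower. In that fit 6 partner genes, 1 copy or paralogue and 0 neighbours were higher, and 0 neighbours and 5 Wnt targets lower; 4 Wnt targets were lower when 1 FPKM was required in all 4 libraries. Leaving out each library gave 5 to 12 partner genes, 1 to 2 copies and 0 to 1 neighbours higher, and 0 to 1 neighbours lower. With a replicate block, NANOG passed at 0.98 (limma adjusted p = 0.0476) and 4 copies or paralogues were higher. Across the genes tested, the gap between replicates 1 and 2 with DMSO correlated at 0.205 with the same gap with IWP2. Same-numbered libraries are known to share only a number. The block changed no other call of the 5 genes. In the planned fit of ratios, SOX2 over NANOG was 3.40 to 4.56 without each library and lost its call without either IWP2 replicate. POU5F1B over POU5F1 was -1.04 to -0.69 without each library, losing its call without either IWP2 replicate, and -0.16 with a pseudocount of 0.1, where its call was lost. Scaling moved the median of all genes by less than 0.1. Depth limits SOX2 with DMSO to about 10 and 8 fragments, as estimated.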
